A study of Homo sapiens with 12 samples.

Results

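HOX genes are the 39 protein-coding rows of the gene tables whose Ensembl identifier maps to a symbol of HOXA, HOXB, HOXC or HOXD followed by a number only, of 59248 rows in all. All 39 were found in the tables, and 27 of them had enough counts to be tested. The libraries came from SJSA-1, an established human osteosarcoma cell line, in 2 groups of 6. The shNC cells carried a scramble shRNA, and the sh1 cells carried the RUNX2 shRNA chosen by the study among those it designed. Both were infected with the same kind of lentivirus, which also gives EGFP and puromycin resistance, and were selected as whole populations, so 1 shRNA is compared with 1 control. Neither the labels nor the methods state that libraries of a group came from separate cultures. The p-values are thus set by how far libraries differ, and that may be technical variation.

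HOX genes encode homeodomain transcription factors and lie in clusters named HOXA to HOXD. Genes with the same number in different clusters form a paralog group, and low numbers are used in front parts of the embryo and high numbers further back and toward the ends of the limbs. Adult mesenchymal cells, among them fibroblasts and cells of bone, keep part of the HOX pattern of the body region they came from, which is called positional identity. HOX proteins bind DNA together with PBX, MEIS and PKNOX proteins, and Polycomb and trithorax complexes hold the clusters off or on. In the embryo, RUNX2 directs osteoblast formation after the limb pattern has been set.

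In GRCh38 the HOXA genes lie on chromosome 7 and the HOXB genes on chromosome 17 from 48528526 to 48728750, both on the minus strand. The HOXC genes lie on chromosome 12 from 53938831 to 54056030 and the HOXD genes on chromosome 2 from 176092721 to 176190907, both on the plus strand. The 250 bases before the start of the canonical transcript are given for HOXD10 (HOXD10-201, chr2:176116528-176116777, plus strand), since it is the member that was higher in sh1. Capitals mark a RUNX core motif (TGTGGT or its reverse complement ACCACA). A HOX-PBX composite motif (TGATNNAT or ATNNATCA) and a TATA motif (TATAAA or TTTATA) were searched as well and had no match in this window.
HOXD10: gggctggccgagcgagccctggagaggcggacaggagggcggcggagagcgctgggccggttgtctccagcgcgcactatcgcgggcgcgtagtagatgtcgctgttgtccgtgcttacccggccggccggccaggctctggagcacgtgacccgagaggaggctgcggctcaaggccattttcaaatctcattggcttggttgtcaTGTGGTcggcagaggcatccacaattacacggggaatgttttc

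The RUNX core motif lay 43 to 38 bases before the HOXD10 start. It was found in the windows of 5 of 39 HOX genes (12.8%), which were HOXC4, HOXC8, HOXC11, HOXD9 and HOXD10. Among 20033 protein-coding genes, 8.87% of the windows held it. HOXC4, HOXC8 and HOXD9 did not reach an adjusted p under 0.05 (edgeR) for a change in sh1, and HOXC11 had too few counts to be tested. The HOX genes that were lower in sh1 (HOXB2, HOXB4, HOXB13, HOXC10 and HOXC13) had no RUNX core motif in their windows. A link between the motif and the change of HOXD10 was not tested. The HOX-PBX motif was found in 7 of 39 HOX windows (17.9%) and in 4.18% of all windows, and the TATA motif in 6 of 39 (15.4%) and in 9.34% of all. Which start site these cells used, and whether any protein was bound there, was not measured.

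Total gene counts ranged from 15328312 to 19992974 in shNC and from 11239638 to 16346022 in sh1. RUNX2, the targeted gene, was at 35.5, 37.7 and 46.2 (lowest, median and highest library) in shNC and at 21.6, 24.8 and 27.4 in sh1, in counts scaled to library size with TMM factors (CPM). The groups did not overlap. The log2 fold change, sh1 over shNC, was -0.69 with a standard error (SE) of 0.076 and an adjusted p of 4.6e-06 (edgeR, quasi-likelihood). Of 8 genes fixed as a check of the line, RUNX2, SPARC, COL1A1, MDM2 and CDK4 were tested. The osteoblast genes SP7, ALPL and BGLAP had 0 to 5 counts in every library. At an adjusted p under 0.05 (edgeR), 3 of those tested were higher in sh1 and 1, RUNX2, was lower. That is 80%, beside 26.1% of all tested genes. The summed level of the 8 was 383 to 451 FPKM in shNC and 531 to 681 in sh1. Of 6 blood cell markers 1 was tested (CD34), and their summed level was 0.148 to 0.296 FPKM in shNC and 0.137 to 0.339 in sh1. Of 5 endothelial markers 2 were tested, KDR (lower, -1.11 on the log2 scale) and PECAM1, with sums of 0.391 to 0.862 FPKM in shNC and 0.369 to 0.883 in sh1. Of 6 epithelial markers 3 were tested, with KRT8 higher (0.48) and CLDN4 lower (-0.58) on the log2 scale, while EPCAM and KRT19 had at most 3 counts and CDH1 none. Their summed level was 80.1 to 94.4 FPKM in shNC and 87.4 to 115.3 in sh1, and their part in the results was not tested. Library sh1 replicate 3 held the fewest counts and the largest share of rows without an Ensembl identifier (1.23% against 0.468% to 0.576%), and results are given without it where they changed.

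In shNC, HOX genes of paralog groups 6, 8, 9 and 10 were on in every cluster that has them, and which other genes were on differed by cluster. The scale used to compare genes is FPKM, fragments per kilobase of gene scaled to the library's counted fragments, as the authors calculated it. A gene was called on when its median over the 6 shNC libraries was at least 1 FPKM and low between 0.1 and 1 FPKM. By this measure 22 of 39 genes were on and 6 were low, another 7 had a few counts and 4 had none. The number on was 26 at a limit of 0.5 FPKM and 15 at 2 FPKM. Summed over all 39 genes, the HOX level was 90.01 ± 3.93 FPKM in shNC (SD, n = 6) and 91.4 ± 4.27 FPKM in sh1 (SD, n = 6), a difference smaller than either SD.

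**Figure D1:**
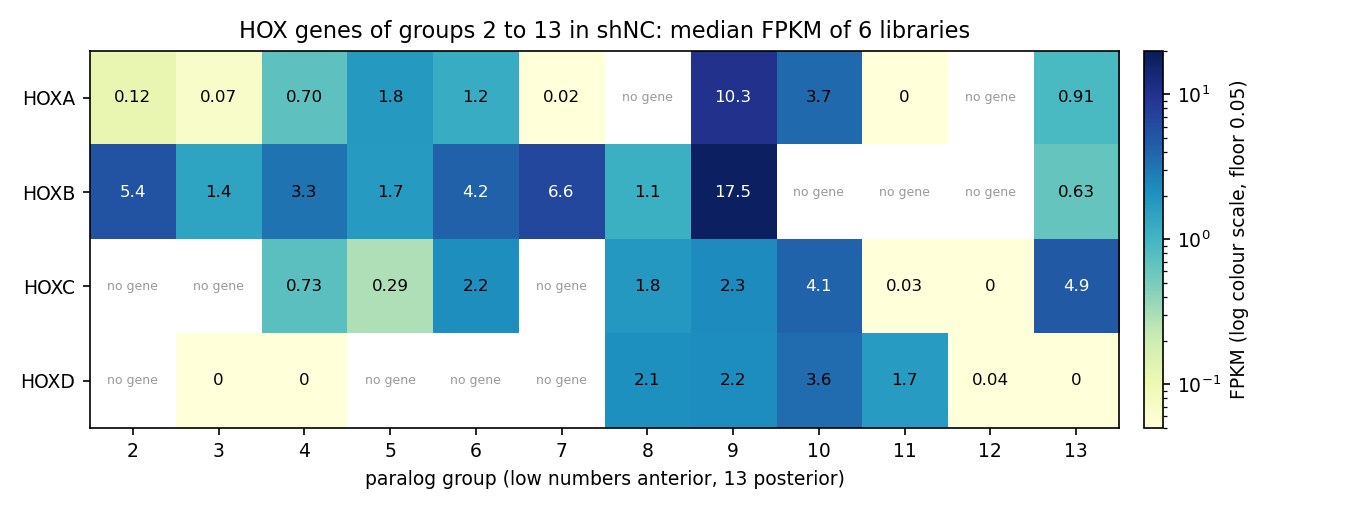
Median FPKM over the 6 shNC libraries for the HOX genes of paralog groups 2 to 13, with clusters as rows, paralog groups as columns and colour on a log scale. The darkest cells are HOXB9 (17.5 FPKM) and HOXA9 (10.3 FPKM), and all existing members of groups 6, 8, 9 and 10 are at or above 1 FPKM.

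Paralog group 9 carried the largest part of the HOX signal. HOXB9, which acts in the thoracic region and in the limb field, was at 16.5, 17.5 and 22.0 FPKM in shNC (lowest, median, highest), a median of 20.6% of all HOX FPKM. HOXA9, a posterior factor also known from blood cell precursors and leukaemia, was at 9.47, 10.3 and 12.001 FPKM. Each of these ranges stood apart from the gene next in order. HOXC9 (2.30 FPKM) and HOXD9 (2.24 FPKM) were lower but on, and the 4 genes of the group together made up 35.3% to 40.3% of the HOX FPKM of an shNC library. HOXB9 lay above 87.3% and HOXA9 above 78.4% of protein-coding genes by shNC median FPKM.

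HOXB7, the third in order, was at 5.89, 6.63 and 7.64 FPKM, and its range overlapped that of HOXB2, the next gene. From HOXB7 down to HOXB13 every gene overlapped its neighbour in the order, so the ranks of neighbours are not separated by the spread of the libraries. Genes further apart in this stretch can be separated. The lowest HOXB7 library, for example, lay above the highest HOXC13 library (5.74 FPKM). HOXB2 (5.41 FPKM), a hindbrain gene of the embryo, was followed by HOXC13 (4.90), known for its role in hair and nail, HOXB6 (4.17), HOXC10 (4.11), HOXA10 (3.73), HOXD10 (3.60) and HOXB4 (3.27), each as the shNC median. The group 10 genes, which pattern the lumbar region and the hindlimb, were thus on in all 3 clusters that have one, at a summed 11.4 ± 0.532 FPKM (SD, n = 6).

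**Figure D2:**
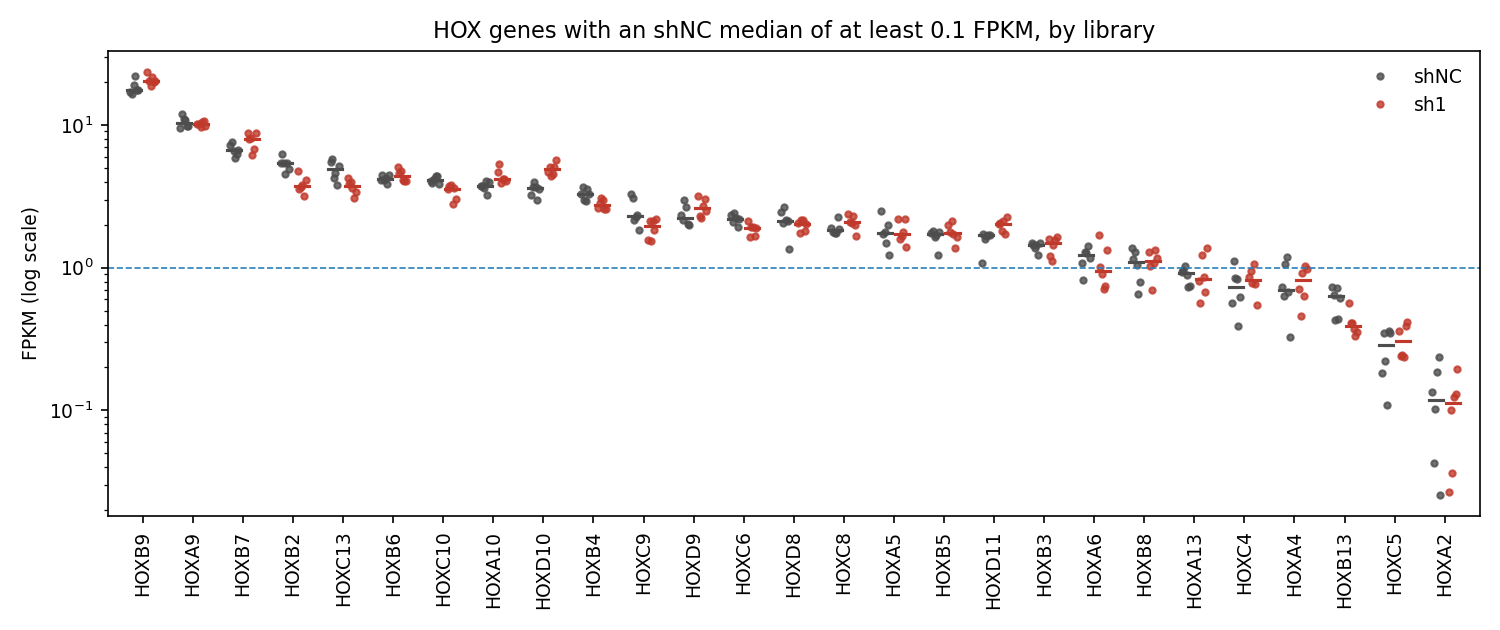
FPKM on a log axis in each of 6 shNC (grey) and 6 sh1 (red) libraries for 27 HOX genes with an shNC median of at least 0.1, with short lines for group medians and a dashed line at 1 FPKM. HOXB9 and HOXA9 stand above the rest, and from HOXB7 down to HOXB13 neighbouring genes overlap.

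The clusters differed in which parts were on. In HOXB, 8 of 10 genes were on, an unbroken row from HOXB2 to HOXB9, with HOXB1 at 0 counts and HOXB13 low (0.629 FPKM). HOXB gave a median of 47.1% of the HOX FPKM. In HOXA, 5 of 11 genes were on, among them HOXA5 (1.76 FPKM), HOXA6 (1.22), HOXA9 and HOXA10, with HOXA2, HOXA4 and HOXA13 low and 23.8% of the HOX FPKM in all. Between them HOXA7 had 0 to 2 counts per shNC library and HOXA11 none.

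In HOXC, 5 of 9 genes were on (HOXC6 at 2.21 FPKM, HOXC8 at 1.83, HOXC9, HOXC10 and HOXC13) and HOXC4 and HOXC5 were low. HOXC11 and HOXC12 lie between HOXC10 and HOXC13 and had at most 5 counts in any library. In HOXD, 4 of 9 genes were on, the adjacent HOXD8 (2.14 FPKM), HOXD9, HOXD10 and HOXD11 (1.68 FPKM). The genes on either side, HOXD1, HOXD3 and HOXD4 on the anterior side and HOXD12 and HOXD13 on the posterior side, had 0 to 5 counts. HOXC held 18.5% and HOXD 10.4% of the HOX FPKM as medians over the shNC libraries.

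HOXA11, HOXB1, HOXD3 and HOXD4 had 0 counts in all 12 libraries, which allows a level of up to 0.150 to 0.267 CPM (3 counts of the library total, counting error only). HOXA11 and HOXD11 work together in the forearm and lower leg in the embryo, and in these cells HOXD11 alone of the group 11 genes was on (1.08, 1.68 and 1.73 FPKM in shNC). HOXD13, which shapes the digits, had 0 to 2 counts in shNC and 0 to 3 in sh1. HOXA13, its partner in that role, was at 0.738, 0.911 and 1.02 FPKM.

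HOX genes lie close together and 25 of 39 share exonic bases with another gene of the count table, from 1.02% to 67.3% of their exonic length. The library kit does not mark strand, and how reads in shared bases were assigned is not given in the sources used here. Among genes with few counts, HOXA7 shared 62.5% (with HOXA-AS3), HOXD1 60.1% (with HAGLR and other genes) and HOXC5 67.3%. Among abundant genes, HOXB6 shared 32.95%, HOXA9 27% and HOXA10 26.33%, while HOXB9 and HOXB7 shared none. With counts divided by the unshared exonic length alone, 22 genes were again at or above 1, with HOXA4 (1.36) in and HOXB8 (0.942) out. All counts of a gene were kept, so reads in shared bases were not taken out. HOXB8 shared no bases, and its length was 2051 bases in the FPKM and 2404 in the annotation used here. As shNC medians on this scale, HOXB9 (17.5), HOXA9 (14.1) and HOXB7 (6.67) kept their order. The order below them changed. HOXB4 was at 6.27 (3.27 as FPKM), above HOXC13 (5.44) and HOXB2 (5.34). Its FPKM used a length of 3757 bases, and its exonic length in the annotation used here was 2002, of which 1958 were unshared. The scale thus also carries differences in annotated length and does not single out sharing. Whether the ranges of libraries stood apart on this scale was not tested.

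In sh1 compared with shNC, which asks what the RUNX2 shRNA changed, 1 HOX gene was higher, 5 were lower and 21 of the 27 tested did not pass. The 6 calls are 22.2% of the tested HOX genes, while 26.1% of all 16489 tested genes were called (12.8% higher and 13.3% lower), so the share of HOX genes called was close to the background. Their median log2 fold change was 0.0063, and that of all tested genes was -0.0035. The groups did not overlap in 2 tested HOX genes, HOXD10 and HOXC10 (7.41%), and in 11.9% of all tested genes. Without sh1 replicate 3, 3 HOX genes were higher and 4 lower, since HOXA10 and HOXB9 passed and HOXB13 did not.

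**Figure D3:**
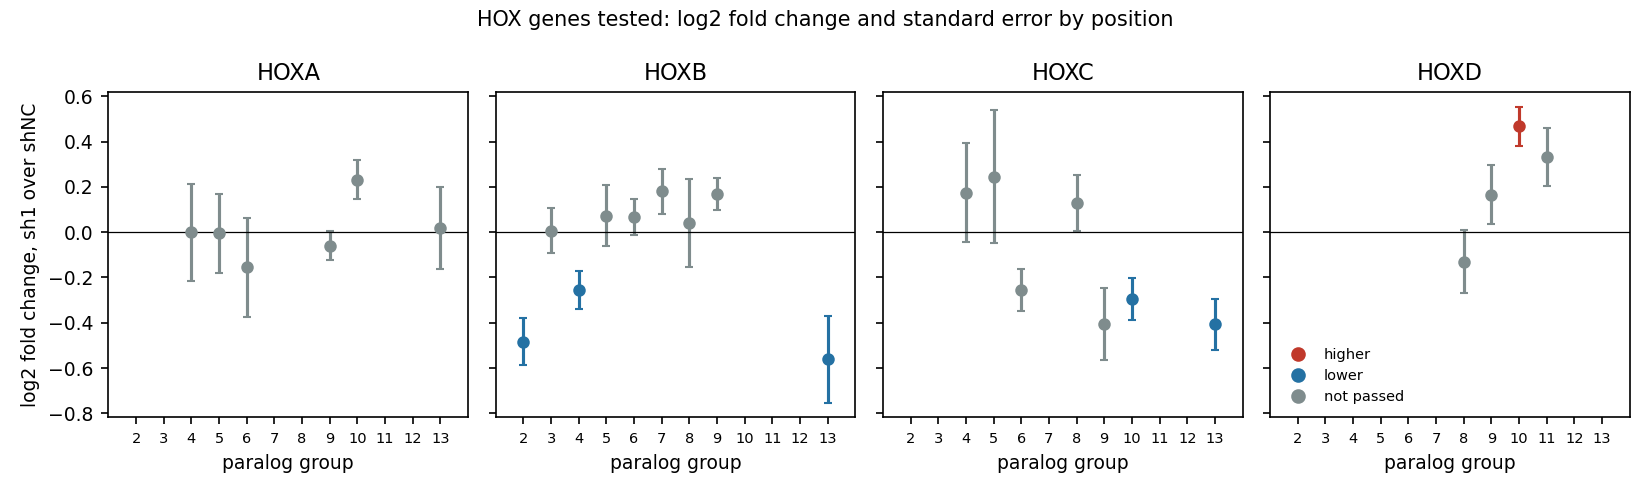
Log2 fold change, sh1 over shNC, with its standard error, for 26 tested HOX genes of paralog groups 2 to 13 by cluster and paralog group, coloured by the call at an adjusted p under 0.05. HOXD10 (0.47) is the single gene called higher, and HOXB2, HOXB4, HOXB13, HOXC10 and HOXC13 lie below zero.

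HOXD10, a factor of the lumbar spinal cord and hindlimb, rose. Its level was 8.22, 9.67 and 10.7 CPM in shNC and 11.8, 13.1 and 15.2 CPM in sh1 (lowest, median, highest). Every sh1 library lay above every shNC library. The sh1 mean was 138% of the shNC mean, a log2 fold change of 0.47 (SE 0.086, edgeR adjusted p = 0.00064). An exact two-sided permutation test over the 12 libraries gave p = 0.0022, the smallest p this design allows. HOXD10 passed under all 22 alternatives (adjusted p from 1.7e-05 to 0.0053, with edgeR, DESeq2 or limma).

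HOXD11, which lies next to HOXD10 and shares 452 exonic bases with it on the same strand, had a log2 fold change of 0.33 but did not pass (adjusted p = 0.067 from edgeR). It was at 2.36, 3.54 and 3.66 CPM in shNC and at 3.63, 4.28 and 4.73 CPM in sh1, and the groups overlapped slightly. It passed with limma on log2(FPKM + 1) (adjusted p = 0.042) and on log2(FPKM + 0.1), and under no other alternative. HOXD9 (0.17) and HOXD8 (-0.13) did not pass (adjusted p = 0.38 and 0.53 from edgeR). As a sum, HOXD was at 9.68 ± 0.941 FPKM in shNC and 11.6 ± 0.614 FPKM in sh1 (SD, n = 6 each). The sums overlapped between the groups (shNC up to 11.2 FPKM, sh1 from 10.7 FPKM) and were not tested.

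HOXB2, HOXB4 and HOXB13 fell, and the other 6 tested HOXB genes did not pass. HOXB2 was at 10.6, 12.8 and 14.5 CPM in shNC and at 7.46, 8.76 and 11.1 CPM in sh1. The highest sh1 library lay above the lowest shNC library. The sh1 mean was 71.6% of the shNC mean, a log2 fold change of -0.48 (SE 0.10, edgeR adjusted p = 0.0020, exact permutation p = 0.0043). HOXB2 passed under all 22 alternatives (adjusted p at most 0.0073).

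HOXB4, a gene of the hindbrain and neck also known from blood stem cells, was at 11.004, 12.5 and 13.7 CPM in shNC and at 9.67, 10.3 and 11.4 CPM in sh1. Its log2 fold change was -0.25 (SE 0.085, edgeR adjusted p = 0.034). The call was lost when shNC replicate 1, 2 or 5 or sh1 replicate 1, 2, 5 or 6 was left out (adjusted p up to 0.098, log2 fold change of -0.21 or below), and without the filter on low counts (adjusted p = 0.080). HOXB13, a posterior gene best known from the prostate, was at 1.502, 2.17 and 2.65 CPM in shNC and at 1.15, 1.35 and 1.96 CPM in sh1, on 16 to 46 counts per library. Its log2 fold change was -0.56 (SE 0.19, edgeR adjusted p = 0.038). The HOXB13 call was lost without shNC replicate 1, 2, 4 or 6 or sh1 replicate 2, 3, 4, 5 or 6 (adjusted p up to 0.092) and also without the filter on low counts (adjusted p = 0.077) and with DESeq2 (adjusted p = 0.057).

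In HOXC, the posterior HOXC10 and HOXC13 fell. HOXC13 was at 9.36, 11.8 and 13.9 CPM in shNC and at 7.46, 9.10 and 10.3 CPM in sh1, so that the groups overlapped in part. Its log2 fold change was -0.41 (SE 0.11, edgeR adjusted p = 0.012, exact permutation p = 0.011), and it passed under all 22 alternatives (adjusted p at most 0.038). HOXC10 was at 8.99, 9.78 and 10.5 CPM in shNC and at 6.55, 8.32 and 8.77 CPM in sh1, with no overlap. Its log2 fold change was -0.29 (SE 0.093, edgeR adjusted p = 0.026, exact permutation p = 0.0022). The HOXC10 call was lost without shNC replicate 5, sh1 replicate 4 or sh1 replicate 6 (adjusted p up to 0.076), and without the filter on low counts (adjusted p = 0.056).

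HOXC6 and HOXC9 had negative log2 fold changes (-0.26 and -0.40) and did not pass (adjusted p = 0.055 and 0.071 from edgeR), though HOXC6 passed without sh1 replicate 1 (adjusted p = 0.044) and HOXC9 without shNC replicate 6 (adjusted p = 0.036). HOXC4 (0.17), HOXC5 (0.25) and HOXC8 (0.13) lay above 0 and did not pass. Summed FPKM of the cluster was 15.5, 16.2 and 18.03 in shNC and 13.1, 14.2 and 15.1 in sh1. The sums thus did not overlap between the groups, as a description of the cluster without a test.

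**Figure D4:**
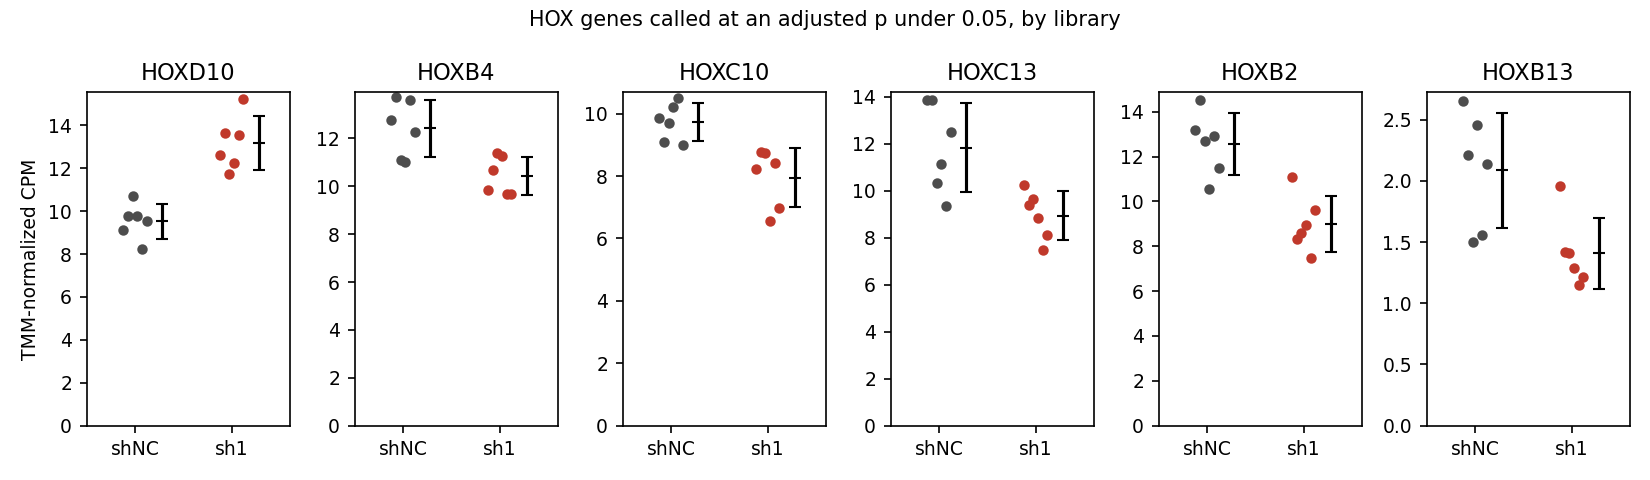
TMM-normalized CPM in each library for the 6 HOX genes called at an adjusted p under 0.05, with the mean and SD of 6 libraries beside the points and axes that start at 0. The sh1 points of HOXD10 (11.8 to 15.2 CPM) lie above all shNC points (8.22 to 10.7 CPM), and those of HOXC10 lie below.

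Within paralog group 10 the members moved in different directions. HOXD10 rose and HOXC10 fell, and HOXA10 had a log2 fold change of 0.23 that did not pass (SE 0.086, edgeR adjusted p = 0.055). HOXA10 was at 12.2, 14.1 and 14.9 CPM in shNC and at 14.4, 15.5 and 19.8 CPM in sh1. It passed without shNC replicate 4 (adjusted p = 0.039), without sh1 replicate 3 (adjusted p = 0.031) and without sh1 replicate 6 (adjusted p = 0.043), and with RLE factors (adjusted p = 0.048), upper quartile factors (0.045) or library totals (0.044) as scaling in place of TMM. As a sum, group 10 was at 11.4 ± 0.532 FPKM in shNC and 12.7 ± 0.879 FPKM in sh1 (SD, n = 6 each). These sums overlapped between the groups (shNC up to 12.1 FPKM, sh1 from 11.6 FPKM) and were not tested.

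The 3 most abundant HOX genes, HOXB9, HOXA9 and HOXB7, and HOXB6 did not pass. HOXB9 was at 42.3, 46.0 and 56.3 CPM in shNC and at 47.9, 52.1 and 60.5 CPM in sh1, a log2 fold change of 0.17 (SE 0.071, edgeR adjusted p = 0.091). It passed without shNC replicate 4 (adjusted p = 0.012) and without sh1 replicate 3 (adjusted p = 0.043). HOXA9 was at 29.7, 31.3 and 36.2 CPM in shNC and at 28.9, 30.7 and 32.3 CPM in sh1, a log2 fold change of -0.06 (SE 0.063, edgeR adjusted p = 0.52). HOXB7 was at 8.93, 10.1 and 11.6 CPM in shNC and at 9.37, 12.2 and 13.4 CPM in sh1 (0.18, adjusted p = 0.20 from edgeR), and HOXB6 at 10.3, 11.03 and 11.5 CPM and at 10.5, 11.4 and 13.2 CPM (0.07, adjusted p = 0.58). The groups of each of these 4 genes overlapped.

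Of the 7 tested HOXA genes 0 passed with edgeR, and 1 of them, HOXA10, had an unadjusted p below 0.05. HOXA10 passed under the 6 alternatives given above. The low HOXA13 had a log2 fold change of 0.02 (edgeR adjusted p = 0.95). HOXA6 was at 1.22 FPKM in shNC and 0.954 FPKM in sh1 as medians, on either side of the limit for on, and did not pass (-0.16, adjusted p = 0.64). HOXB3, HOXB5 and HOXB8, with log2 fold changes of 0.0063, 0.07 and 0.04, also did not pass. The standard error had a median of 0.12 over the tested HOX genes and of 0.094 over all tested genes. The 12 genes that were not tested had at most 15 counts in any library.

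Of 18 non-coding genes of the HOX clusters, 11 were tested and 1 was called (9.09%, beside 26.1% of all tested genes). HAGLR, which lies on the opposite strand at HOXD1, fell from 3.02, 4.10 and 4.50 CPM in shNC to 1.83, 2.49 and 3.63 CPM in sh1 (log2 fold change -0.61, SE 0.16, adjusted p = 0.0088 from edgeR). The most abundant per length was HOXB-AS4 (8.02 FPKM in shNC), which did not pass (0.11, adjusted p = 0.54). HOXA11-AS, which lies antisense to HOXA11, had 0 or 1 count, and HOTAIR, of the HOXC cluster, had 1 to 11 counts in a library.

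Of 20 protein-coding genes that flank the clusters, 15 were tested, 6 were lower and 0 were higher by edgeR. The 6 are 40% of those tested, beside 13.3% of all tested genes lower and 26.1% called in either direction. The 6 were SKAP2 (-0.27, adjusted p = 0.010) and HIBADH (-0.19, adjusted p = 0.019) on chromosome 7, CALCOCO2 (-0.22, adjusted p = 0.0077) on chromosome 17, ATP5MC2 (-0.20, adjusted p = 0.027) on chromosome 12, and ATP5MC3 (-0.39, adjusted p = 0.020) and MTX2 (-0.23, adjusted p = 0.016) on chromosome 2. HIBADH starts at 27525442, with EVX1 between it and the HOXA genes. CALCOCO2 starts at 48831018, with TTLL6 between it and the HOXB genes. ATP5MC2 ends at 53677408, with CALCOCO1 between it and the HOXC genes. ATP5MC3 ends at 175181710, with LNPK and EVX2 between it and the HOXD genes, and MTX2 starts at 176269395, beyond HOXD1. HNRNPA1, the most abundant (334 FPKM in shNC), did not pass (-0.16, adjusted p = 0.064 from edgeR). The median log2 fold change of the 15 was -0.12. By edgeR, ATP5MC2 did not pass without shNC replicate 1, 3 or 5 or sh1 replicate 1, 2, 3 or 6 (adjusted p up to 0.069), nor HIBADH without shNC replicate 3 or 4 or sh1 replicate 6 (up to 0.061) or without the filter on low counts (0.069), nor MTX2 and ATP5MC3 without shNC replicate 5 (0.058 and 0.051).

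Of 9 PBX, MEIS and PKNOX genes, which encode partners of HOX proteins, 7 were tested, 2 were higher and 5 did not pass (28.6% called, beside 26.1% of all tested genes). PBX2, the most abundant of them, was at 58.3, 63.5 and 71.7 CPM in shNC and at 69.2, 78.9 and 83.0 CPM in sh1 (0.28, adjusted p = 0.0023 from edgeR). MEIS3 rose by 0.74 on the log2 scale (adjusted p = 0.0039), from a median of 3.00 to 5.61 CPM. The list's median was 0.11.

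All 11 genes of Polycomb repressive complex 2, which places the repressive mark on histone H3, were tested, with 1 higher, 2 lower and 8 not passing (27.3% called, beside 26.1% of all tested genes, median -0.03). EZH2, its main catalytic subunit, fell by 0.15 on the log2 scale (adjusted p = 0.023) and its paralog EZH1 rose by 0.20 (adjusted p = 0.031). RBBP4, a histone-binding subunit, fell by 0.22 (adjusted p = 0.0091). The most abundant, RBBP7 (30.4 FPKM in shNC), did not pass (-0.11, adjusted p = 0.20). Of 16 genes of Polycomb repressive complex 1, 3 were lower, namely CBX8 (-0.44, adjusted p = 0.0072), CBX2 (-0.30, adjusted p = 0.039) and PCGF6 (-0.27, adjusted p = 0.0053), and 13 did not pass (18.8% called, median 0.03), PHC2 (34.7 FPKM) among them. A list of 16 genes held trithorax genes, genes of factors linked to them and H3K27 demethylase genes. KMT2A (0.18, adjusted p = 0.0028), which encodes a histone methyltransferase that keeps HOX genes on, was higher. So were KMT2C (0.18, adjusted p = 0.0056) and AFF1 (0.25, adjusted p = 0.00046), while DPY30 (-0.31, adjusted p = 0.019) was lower. The remaining 12, with PSIP1 as the most abundant (32.9 FPKM), did not pass (25% called). All of these p-values are from edgeR. EZH1 did not pass without shNC replicate 1 or sh1 replicate 3 or 5 (adjusted p up to 0.067), EZH2 without shNC replicate 1 or 4 or sh1 replicate 1, 2 or 6 (up to 0.069), and DPY30 without shNC replicate 5 or sh1 replicate 5 (up to 0.058). Without the filter on low counts EZH1 and EZH2 did not pass either (adjusted p = 0.064 and 0.105). CBX2 did not pass without shNC replicate 1, 2, 5 or 6 or sh1 replicate 2, 3, 4, 5 or 6 (adjusted p up to 0.096), nor with limma (0.064 on log2(FPKM + 1) and 0.068 on log2(FPKM + 0.1)).

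**Figure D5:**
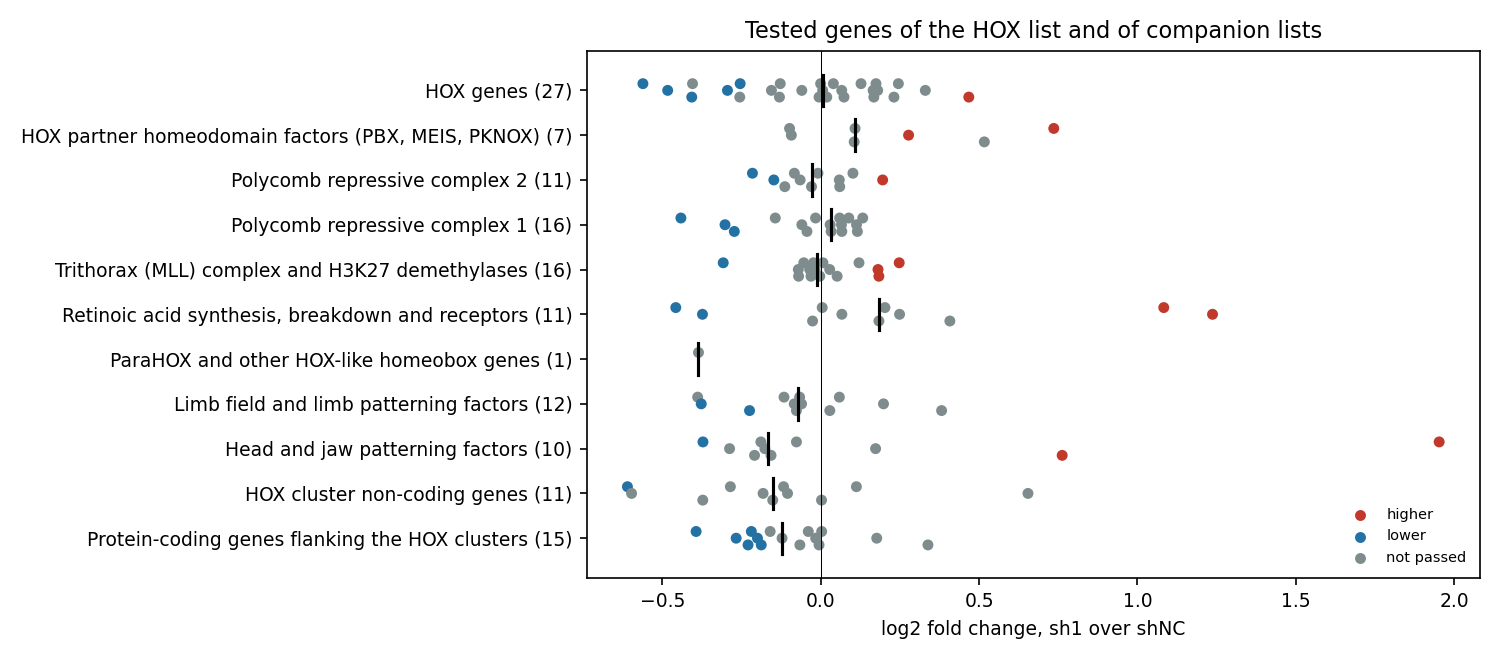
Each tested gene of the HOX list and of 10 companion lists by its log2 fold change (sh1 over shNC), with the number tested in brackets, colours for the call at an adjusted p under 0.05 and a black line at the list's median. The HOX genes lie between -0.56 and 0.47 around a median of 0.0063.

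Retinoic acid turns on HOX genes in the embryo. Of 11 tested genes of its synthesis, breakdown and binding, 4 were called, 2 in each direction. That is 36.4%, beside 26.1% of all tested genes. CRABP2, a binding protein for retinoic acid, rose by 1.24 on the log2 scale (adjusted p = 0.00041), from 0.895, 1.96 and 3.304 CPM to 3.45, 4.45 and 6.18 CPM, with no overlap. CYP26B1, which breaks retinoic acid down, rose by 1.08 (adjusted p = 0.0060) at a median of 0.554 CPM in shNC. The synthesis enzymes RDH10 (-0.46, adjusted p = 0.00058) and ALDH1A3 (-0.37, adjusted p = 0.010) fell. ALDH1A1, another synthesis enzyme, had 7 to 14 counts in shNC and 0 to 2 in sh1 and was below the filter. RXRB, the most abundant (12.8 FPKM in shNC), did not pass (0.0048, adjusted p = 0.96 from edgeR, as are the others).

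Genes that mark a limb were measured as well, and what they say of the position of these cells was not tested. PITX1, the factor that sets hindlimb identity, was at 2.38 FPKM in shNC and 2.41 FPKM in sh1 (medians), while TBX5, of the forelimb, had 0 to 4 counts and TBX4, which PITX1 turns on in the hindlimb, 0 to 3 counts in a library. Of 21 limb genes 12 were tested, 2 were lower and 10 did not pass (16.7% called, beside 26.1% of all tested genes, median -0.07). TBX3, the most abundant (27.1 FPKM in shNC), fell by 0.22 on the log2 scale (adjusted p = 0.017 from edgeR) and MSX1 by 0.38 (adjusted p = 0.019). Without shNC replicate 2 or 3 or sh1 replicate 1 or 5, TBX3 did not pass (adjusted p up to 0.063), nor with limma (0.062 with either pseudocount), and MSX1 did not pass without shNC replicate 2 or sh1 replicate 4 (adjusted p up to 0.061). SHOX2 (4.58 FPKM), SALL1 (4.15) and GLI3 (2.41) were on in shNC and did not pass, and PRRX1, a gene of early limb mesenchyme, had 0 to 3 counts.

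Over the 10 companion lists together, 28 of 110 tested genes were called (25.5%), 10 higher and 18 lower, beside 26.1% of all tested genes.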

How the data were processed

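Polyadenylated RNA of 6 shNC and 6 sh1 libraries was sequenced as read pairs. The authors aligned reads to GRCh38 with HISAT2 and made counts per gene with featureCounts (no versions were stated), and deposited raw counts and FPKM values calculated from them. The deposited counts divided by size factors were not used. Identifiers were matched to GENCODE 44 (58207 of 58676), and 572 rows without an Ensembl identifier stayed in the totals.

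For 16489 rows that passed filterByExpr, the raw counts went into edgeR 4.0.16 (R 4.3.3; TMM factors, then glmQLFit with glmQLFTest), with Benjamini-Hochberg adjustment over all of them. Calls are at an adjusted p under 0.05, and standard errors were derived from the log2 fold change and the F statistic. Levels of genes were compared as FPKM. In 40131 rows with a count, the FPKM equalled the count divided by one gene length and the library total. Windows before transcript starts were read from GRCh38. Alternatives used other scalings and filters, DESeq2 1.42.0, limma 3.58.1 on log2(FPKM + 1) and log2(FPKM + 0.1), a replicate block and leaving out each library. The fit was tested on simulated data. It called 53 of 67 genes changed by 1.5-fold, 64 of 67 changed by 2-fold and 66 of 66 changed by 4-fold. It also called 8 unchanged genes. The changed genes were drawn only from rows above a limit on mean counts. The shares found may thus not hold for tested genes with few counts, such as HOXC5 (3 to 12 counts in shNC). Smaller changes were not simulated, and those of the tested HOX genes were all below 1.5-fold.

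The HOX members and the gene lists were chosen with earlier results of these data known. All 39 HOX genes entered the counts and sums (some single values and sequences are not reported here), with values in full for the 10 most abundant and for those called; of each other list, up to 4 called genes with the smallest p and the most abundant gene were named, and all called genes of the non-coding and flanking lists. Genes named beyond this (HOXD11, PITX1 and others with values only) were chosen after their values were seen. The metabolome was not analysed here.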

Additional observations from a re-analysis of the deposited data

Results flagged for a closer look

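In 54 checks, the 27 tested HOX genes in each group, a library stood out where the distance to the next one, as a share of the range of its group of 6, passed Dixon's critical value, as happens by chance in about 1 of 20 groups. That makes 2.7 of 54, and 3 were seen. HOXD11 was at 2.36 CPM in shNC replicate 1 and at 3.35 to 3.66 in the other shNC libraries. HOXB5 was at 2.58 CPM in shNC replicate 5 (3.35 to 3.74 in the others), and HOXB13 at 1.96 CPM in sh1 replicate 1 (1.15 to 1.42 in the others).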

How the results depend on the processing

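The number of HOX genes called was 6 with 1 higher and 5 lower. Without a filter on low counts it was 3, with 2 lower. Under RLE, upper quartile or library total scaling, and with limma on log2(FPKM + 1) and on log2(FPKM + 0.1), 2 were higher. With a replicate block 3 were lower and 4 were called in all, since HOXB4 and HOXC10 did not pass (adjusted p = 0.091 and 0.058). With the same replicate block EZH1, EZH2, CBX2, HIBADH and ATP5MC2 did not pass (0.064, 0.071, 0.056, 0.060 and 0.058). Leaving out each library gave 4 to 7 called, 1 to 3 higher and 2 to 5 lower. The causes were not tested. For the 27 HOX genes, 555 of the values under alternatives kept their call, 25 lost it and 12 gained it, and no called gene changed direction. HOXA4 and HOXC5 were below the stricter filter. The number of genes on in shNC ranged from 15 to 27 with the limit and scale used, and was 22 without any single shNC library. The genes called, sh1 against shNC, were 4302 in all, and 3381 with the replicate block. Same-numbered libraries correlated at -0.16 to 0.033 in their deviations from the group means, so the numbers give no sign of pairing, and in 0 of 6 numbers was the own partner the best match.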

Other observations

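Factors of the head and jaw, a region that forms mostly without HOX genes, were measured beside the HOX pattern. Of 19 such genes 10 were tested, with 2 higher, 1 lower and 7 not passing by edgeR (median log2 fold change -0.17). The share called was 30%, beside 26.1% of all tested genes. DLX3, a factor of branchial arches, skin and bone, had 0 to 12 counts in shNC and 14 to 24 in sh1, a log2 fold change of 1.95 (adjusted p = 0.00036), and DLX5, which promotes osteoblast formation, rose by 0.76 (adjusted p = 0.0026) at a median of 0.897 CPM in shNC. DLX1 fell by 0.37 (adjusted p = 0.0054), and SIX2, the most abundant (4.58 FPKM in shNC), did not pass (-0.21, adjusted p = 0.20). OTX2, of the forebrain, had at most 1 count, and OTX1 had 4 to 17.

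Of 13 ParaHOX and other HOX-like homeobox genes, GBX2 was the single one tested (0.968 FPKM in shNC, log2 fold change -0.39, adjusted p = 0.22 from edgeR). CDX1, CDX2, CDX4 and GSX1 had 0 counts in all 12 libraries. The windows of 250 bases before HOX starts held 3 to 40 CpG dinucleotides with a median of 15, and those of all protein-coding genes a median of 18.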
